A study of Mus musculus with 22 samples.

Results

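The 60 loci described here are genes whose ribosome-bound RNA was lower with rapamycin than without it in Purkinje cells (PCs) of both genotypes. They were chosen by their values in 12 libraries of translating ribosome affinity purification (TRAP), in which tagged ribosomes are pulled down and the RNA on them is sequenced. Of 66494 assembled loci, 1832 carry a gene symbol in the study's own gene lists, and 649 of those had a mean of at least 4 over the 12 TRAP libraries on the log2(value + 1) scale, where value is the deposited fragment signal. For each of the 649 candidates, A is the mean with rapamycin minus the mean without it in controls, and B is the same difference in mutants. The members are the 60 candidates for which the larger of A and B was lowest. A and B therefore describe how the list was made, and no test is given for them. The lists that name the members hold genes that the study picked for differences between genotypes: 57 members come from its list of changed translation efficiency, 14 from its list of TRAP differences and 2 from its list of total RNA differences.

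Rapamycin inhibits mTOR complex 1, a kinase complex that drives protein synthesis, ribosome production and anabolic growth and holds back autophagy. TSC1 and TSC2 form the complex that restrains it, so cells without TSC1 have excess mTOR complex 1 activity. PCs are the large inhibitory output neurons of the cerebellar cortex. Many messages of ribosomal proteins and translation factors that respond to mTOR begin with a run of pyrimidines at the start of the transcript, known as a terminal oligopyrimidine (TOP) tract.

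All animals are labelled C57BL/6. By the study's methods they carried L7Cre, in which the L7 (Pcp2) promoter drives Cre recombinase in PCs, although the study also describes sorted controls that carried L7GFP without Cre. Controls were Tsc1+/+ and mutants were Tsc1 fl/fl, so that Tsc1 was deleted only in cells in which Cre had acted. TRAP animals also carried Rosa26fsTRAP, which makes EGFP-tagged ribosomal protein RPL10A after Cre acts. Each TRAP library came from the cerebellum of 1 animal, with 3 control, 3 control rapamycin, 3 mutant and 3 mutant rapamycin libraries. Sorted animals instead carried L7GFP, and total RNA was made from GFP-positive cells in 5 control and 5 mutant libraries, none of them treated with rapamycin. Sorted cells came from either of a pair of juvenile ages, which the labels do not give per library. The labels also give no age for TRAP animals and no dose or schedule of rapamycin. Nothing states whether untreated animals received vehicle.

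TRAP libraries held 2.47 to 6.38 M fragments and sorted libraries 43.3 to 86.3 M, and counting error is largest for low TRAP values. Control rapamycin libraries were not the shallowest (4.28 to 4.89 M), but they detected the fewest loci (8449 to 11082, against 11882 to 20951 in the other 9). All 13 Purkinje markers had signal in every group of TRAP libraries, and their summed level was 13.45 to 13.66 in controls, 13.10 to 13.31 with rapamycin, 13.17 to 13.35 in mutants and 13.26 to 13.44 in mutants with rapamycin. No granule cell marker carries a symbol in these lists, so that cell type could not be checked, nor could Tsc1 itself. In sorted cells, the Purkinje marker sum was 15.65 to 16.76 in mutants 61, 74 and 103 (submission MS2723) and 18.35 to 19.27 in the other 7 libraries. In bulk samples, fewer cells of a type and less RNA per cell cannot be told apart.

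Start sites were read because TOP tracts lie there. RefSeq promoter windows of GRCm38.p6 (250 bases before and 50 bases from the annotated start) matched 48 of the 60 members by symbol and gave 63 windows. Shown first are 20 bases around the start for the 5 lowest-ranked members with a window and for Paip2b, the translation regulator of the list. Capitals mark the 5 bases from the start base onward.
Rtel1: gaaacGGAAGtgtagcattt
Hspa14: gcagcAGACCggacgcagta
Vps29: tgacgGGAAAtgacccttac
Stk39: cggggAGGGCgtgcgccggc
Prkab2: aggcaGAGGCggtacctcgt
Paip2b: cgcgcGTGTGaggccgaggt
These stretches lie at chr2:181319719-181319738 (plus strand), chr2:3512800-3512819 (minus strand), chr5:122354323-122354342 (plus strand), chr2:68471967-68471986 (minus strand), chr3:97658207-97658226 (plus strand) and chr6:83831727-83831746 (minus strand). A start of C followed by 4 bases that are each C or T, read on the transcript strand only, was found in 0 of 63 member windows. The share was 2.38% of 589 windows of the other candidates and 2.51% of all 32851 windows. No match says only that these letters do not stand at the annotated base.

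Letters for a pair of other known motifs were also searched in the whole window. Both read the same on either strand, and no member window held both. CACGTG, the E-box bound by factors such as MYC and TFEB, was present in 5 of 63 member windows (7.94%), 7.3% of windows of the other candidates and 7.15% of all windows. The 30 bases around it are shown for those 5 members, with the motif in capitals.
Atp5g1: agggactccgaaCACGTGggtgggggagct
Psme3: ggctgcgcagggCACGTGctcatcctcccc
Tmed8: ccccgcccctctCACGTGtcaggccagcgc
Hnrnpm: gtcgttcggggtCACGTGagcgcgcaggcg
Lpin2: cggagctcgcgtCACGTGgccgggccgggg
These lie at chr11:96075658-96075687 (minus strand), chr11:101316157-101316186 (plus strand), chr12:87200348-87200377 (minus strand), chr17:33685428-33685457 (minus strand) and chr17:71183511-71183540 (plus strand). TGACGTCA, the cAMP response element, was in 2 of 63 member windows (3.17%), 3.9% of windows of the other candidates and 1.79% of all windows.
Akirin1: gcgcacgcccgTGACGTCAcaggaggcggg
Fam220a: ggccggctttgTGACGTCAggccgcgcggc
These lie at chr4:123750293-123750322 (minus strand) and chr5:143548702-143548731 (plus strand). For neither motif did the members' share stand far from that of the other candidates, and no test was made.

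Over the 60 members, A ranged from -3.20 to -0.58 with a median of -1.19, and B ranged from -3.03 to -0.58 with a median of -0.89. Among the other 589 candidates the medians were -0.17 and -0.12, and over all 9174 loci with a mean of at least 2 they were -0.37 and -0.04. Both differences were below 0 in 256 of the 649 candidates and both above 0 in 99. Only 12 candidates were as far above 0 in both genotypes as the last member was below it. A was below -1 in 36 members, B in 26 and both in 18, so that for most members at least one of the differences was smaller than 2-fold. At the limit of the list, Akirin1 (A -1.42, B -0.58), Scmh1 (A -2.03, B -0.58) and Psma6 (A -0.93, B -0.58) were the last inside. Gnal (A -0.61, B -0.58), Prkcd (A -0.58, B -1.22) and Strn3 (A -0.69, B -0.57) were the first outside, so the edge falls among values that hardly differ.

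**Figure D1:**
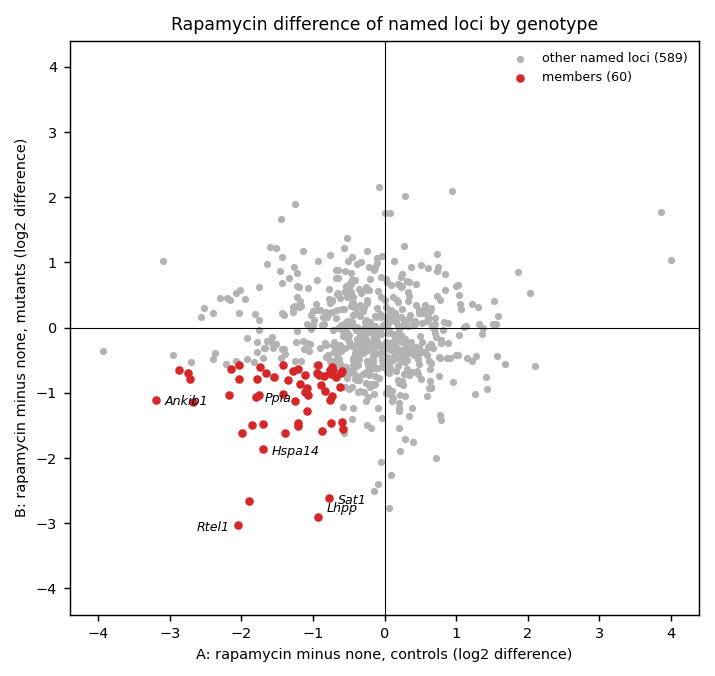
Rapamycin minus untreated TRAP signal (log2 difference of group means, 3 libraries each) in controls on the x axis and in mutants on the y axis, for 649 named loci, with values beyond 4 drawn at the edge. The 60 members (red) fill the lower left, where the rule placed them, and range to -3.20 in controls and -3.03 in mutants.

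All 3 mutant rapamycin libraries lay below all 3 mutant libraries for 47 members, against 9.33% of all loci tested. In controls that held for 23 members, against 8.73% of loci, and in both genotypes for 19 members, against 1.25% of loci. Since the rule used these values, nothing is read from those shares.

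Of the 4 TRAP groups, controls with rapamycin had the largest spread among the members. The median within-group SD of the members was 0.31 in controls, 1.78 in controls with rapamycin, 0.20 in mutants and 0.42 in mutants with rapamycin. Among the other candidates it was 0.30, 0.68, 0.24 and 0.38. No member was listed at 0 in an untreated library, but 18 were at 0, counted as a value under 0.01, in a control rapamycin library (11 in the first, 7 in the second and 0 in the third) and Fam220a was at 0 in mutant rapamycin 2. Of all loci tested, 30.2%, 16.4% and 12% were at 0 in the 3 control rapamycin libraries. That set needed a mean of only 2, against 4 for the candidates. Of the candidates, members included, 7.24%, 2.31% and 0.308% were at 0 in the same libraries, against 18.3%, 11.7% and 0% of the members. A value of 0 in these libraries lowers A and so favours membership, so nothing is read from these shares. Such a 0 can be a quantification that failed or a transcript that was not seen. With values at 0 left out of the group means, the median of A was -0.84 and that of B -0.87, and 51 members still had both differences below 0. A was then above 0 for Prps1 (0.68), Mkl2 (0.56), Psme3 (0.47), Paip2b (0.43), Prkab2 (0.42), Mob4 (0.20), Akirin1 (0.08) and Ift81 (0.02). B was above 0 for Fam220a (0.76). Every control rapamycin library lay below the untreated mean for 32 members, and every mutant rapamycin library for 53. The rule used these values too, so nothing is read from those counts. Control rapamycin 1 held the lowest value of its group for 32 members, control rapamycin 2 for 20 and control rapamycin 3 for 8. The median difference of the members from the untreated mean was -1.42, -0.83 and -0.66 in these libraries, and -0.88, -1.21 and -0.71 in mutant rapamycin libraries 1, 2 and 3.

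**Figure D2:**
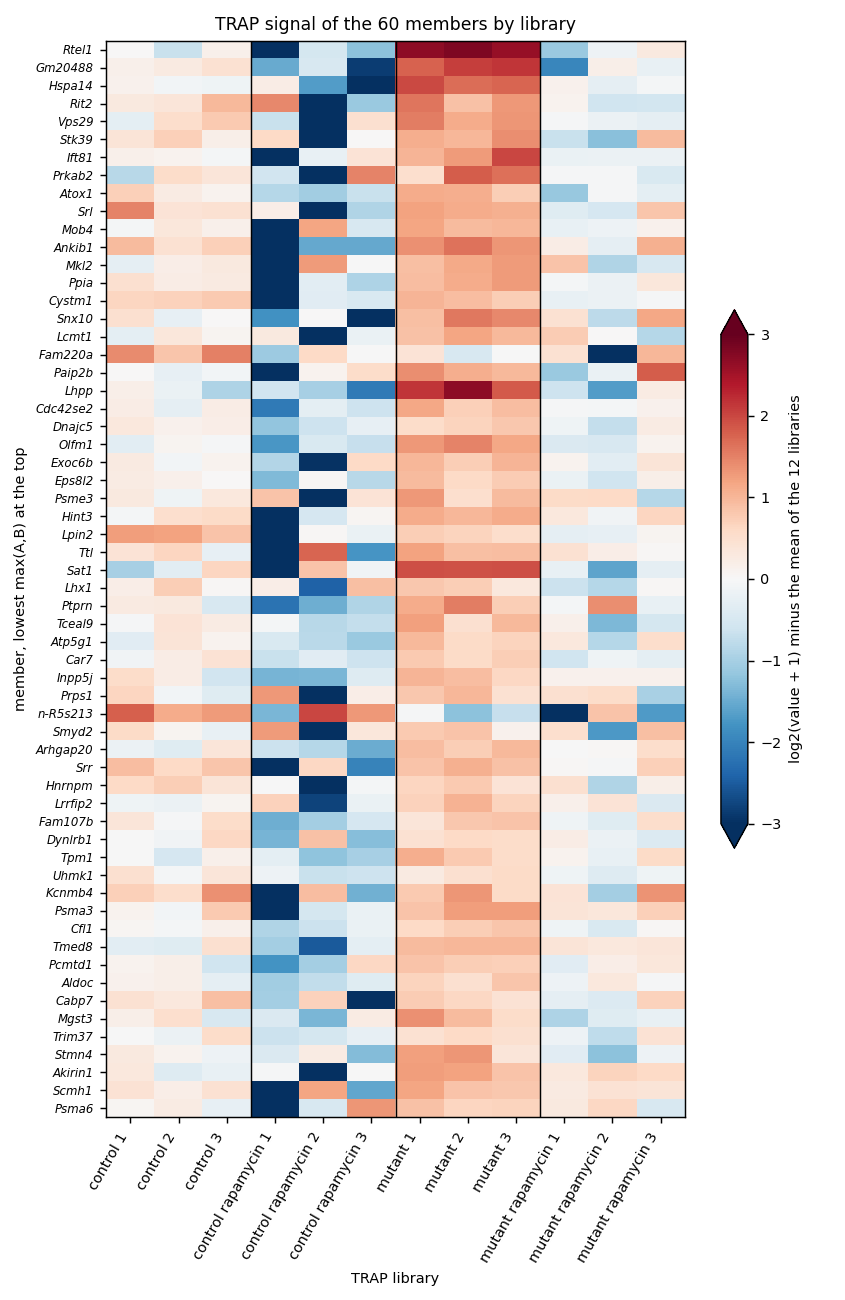
TRAP signal of the 60 members (rows, lowest max(A,B) at the top) in 12 libraries (columns), as log2(value + 1) minus the member's mean over the libraries, with colours capped at 3. The 3 mutant libraries are the highest block for most members, and single control rapamycin libraries hold the darkest cells, 18 members being at 0 in one of them.

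The lowest-ranked member was Rtel1, a helicase that maintains telomeres (chr2:181319739-181356616). Its log2 level was 4.90, 4.21 and 5.03 in controls, 0, 4.35 and 3.67 in controls with rapamycin, 7.58, 7.69 and 7.502 in mutants and 3.77, 4.73 and 5.17 in mutants with rapamycin. The mutant libraries lay above all the others and the groups were apart in mutants, whereas in controls the second rapamycin library overlapped the untreated ones and the first was at 0. A was -2.04 and B -3.03. Gm20488 (chr5:149368476-149430682), a predicted transcript that overlaps other gene models so that its reads are uncertain, had 4.78, 4.90 and 5.08 in controls and 3.11, 4.15 and 1.79 with rapamycin. In mutants it had 6.42, 6.71 and 6.77, and 2.68, 4.80 and 4.41 with rapamycin. Both pairs of groups were apart (A -1.90, B -2.66).

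Protein folding and breakdown gave 5 members among 31 candidates of that list: Hspa14, Ppia, Psma3, Psma6 and Psme3. Over all candidates, 60 of 649 are members. The 31 had a median A of -0.10 and B of -0.17, and both were below 0 in 12 of them. Hspa14, an Hsp70 relative that works with ribosome-associated chaperones (chr2:3488850-3512814), had 5.63, 5.43 and 5.38 in controls, 5.72, 3.83 and 1.79 in controls with rapamycin, 7.47, 7.17 and 7.25 in mutants and 5.64, 5.22 and 5.44 in mutants with rapamycin. Rapamycin libraries were below the untreated ones in mutants only, and the first control rapamycin library was the highest of the controls. Ppia, cyclophilin A, a peptidyl-prolyl isomerase (chr11:6415443-6419817), had 8.12, 7.88 and 7.93 in controls and 4.46, 7.35 and 6.73 with rapamycin, then 8.58, 8.77 and 8.92 in mutants and 7.60, 7.48 and 7.998 with rapamycin. Both pairs were apart for Ppia, but its many processed copies in the genome make its reads uncertain. Psma3 and Psma6, alpha subunits of the 20S proteasome, had A of -2.14 and -0.93 and B of -0.64 and -0.58. Psma3 was at 0 in control rapamycin 1, and with that value left out its A was -0.64. Psma6 was 1.54, 4.64 and 6.43 in controls with rapamycin, against 4.88 to 5.36 without. Psme3, a nuclear activator of the proteasome, had A -1.35 and B -0.81. Neither of its pairs was apart, and its control rapamycin libraries were 5.69, 0 and 5.24 against 4.71 to 5.15 untreated. With the library at 0 left out, its A was 0.47. Ankib1, a RING-between-RING ubiquitin ligase (chr5:3690000-3802925), had 5.33, 4.84 and 5.10 in controls and 0, 2.85 and 2.84 with rapamycin. In mutants the levels were 5.75, 6.01 and 5.72 without and 4.62, 4.10 and 5.44 with rapamycin. Both pairs were apart, and its A of -3.20 was the lowest of all members. Trim37, another ubiquitin ligase, was apart in both genotypes as well, with A -0.59 and B -0.67.

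Membrane and vesicle traffic was also represented. Vps29, a subunit of the retromer that returns cargo from endosomes (chr5:122354369-122364984), had 5.53, 6.36 and 6.60 in controls, 5.15, 1.47 and 6.31 in controls with rapamycin, 7.35, 6.94 and 7.15 in mutants and 5.79, 5.63 and 5.54 in mutants with rapamycin. Its mutant groups were apart, while in controls the second rapamycin library alone was far below the rest. Ift81, a subunit of the intraflagellar transport complex of cilia (chr5:122550204-122614518), had 4.30, 4.26 and 4.10 in controls and 0, 3.92 and 4.57 with rapamycin, and 5.18, 5.43 and 6.15 in mutants and 3.95, 3.98 and 3.98 with rapamycin. The 3 mutant rapamycin libraries were nearly equal, and in controls 1 library was at 0 and another above every untreated one. Snx10, an endosomal sorting nexin (A -1.75, B -1.03), and Exoc6b, an exocyst subunit (A -1.18, B -0.86), were also members. Snx10 was apart in neither genotype and Exoc6b in mutants only. Exoc6b was 4.94, 2.85 and 6.40 in controls with rapamycin, against 5.73 to 6.09 without. Dnajc5, the synaptic vesicle chaperone called cysteine string protein, was the single member among 38 candidates of the synapse list, and its groups were apart in both genotypes (A -0.89, B -0.87). Olfm1, a secreted glycoprotein of neurons (chr2:28192992-28230736), had 6.71, 7.11 and 6.99 in controls, 5.30, 6.57 and 6.34 in controls with rapamycin, 8.34, 8.51 and 8.20 in mutants and 6.60, 6.55 and 7.14 in mutants with rapamycin, with both pairs apart. Ptprn, a protein of dense-core vesicles (chr1:75247027-75264502), had 5.02, 5.04 and 4.28 in controls and 2.53, 3.30 and 3.86 with rapamycin. In mutants it had 5.86, 6.28 and 5.49 and, with rapamycin, 4.68, 6.15 and 4.53. The control groups were apart, but mutant rapamycin 2 lay among the untreated mutants. Tmed8 (chr12:87166237-87200454) had 5.23, 5.17 and 6.02 in controls, 4.53, 3.01 and 5.24 in controls with rapamycin, 6.48, 6.54 and 6.54 in mutants and 5.92, 5.85 and 5.91 in mutants with rapamycin, and was apart in mutants only.

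Kinases, GTPases and their regulators included Rit2, a small GTPase of neurons (chr18:30973489-31317290). Its levels were 4.98, 5.07 and 5.66 in controls, 6.13, 0 and 3.59 in controls with rapamycin, 6.31, 5.58 and 5.996 in mutants and 4.81, 4.10 and 4.14 in mutants with rapamycin. The first control rapamycin library was above all controls and the second at 0, so that A of -1.998 is a mean of unlike libraries. Stk39, the kinase SPAK that controls cation-chloride cotransporters (chr2:68210445-68472268), had 4.82, 5.15 and 4.61 in controls and 5.03, 0 and 4.45 with rapamycin, and 5.53, 5.43 and 5.83 in mutants and 3.77, 3.18 and 5.38 with rapamycin. Prkab2, the beta-2 subunit of AMP-activated kinase (chr3:97658193-97673812), was the single member among 10 candidates of the mTOR, insulin and AMPK list. It had 3.59, 4.99 and 4.79 in controls, 3.85, 0 and 5.91 in controls with rapamycin, 4.93, 6.25 and 6.10 in mutants and 4.39, 4.41 and 3.98 in mutants with rapamycin. Stk39 and Prkab2 shared the pattern of Rit2, with mutant groups apart and the second control rapamycin library at 0. The 10 candidates of the mTOR, insulin and AMPK list had medians of -0.26 for A and -0.21 for B, and both were below 0 in 4 of them. Mob4, a MOB family protein of the STRIPAK phosphatase complex (chr1:55131231-55154899), had 3.95, 4.35 and 4.15 in controls and 0, 5.18 and 3.52 with rapamycin, and 5.18, 4.96 and 4.998 in mutants and 3.77, 3.86 and 4.14 with rapamycin. It was apart in mutants, and in controls the 3 rapamycin libraries spread from 0 to above every untreated one. Lhpp, a phosphatase of phosphohistidine (chr7:132610638-132706420), had 5.84, 5.45 and 4.73 in controls, 5.07, 4.64 and 3.52 in controls with rapamycin, 7.79, 8.34 and 7.499 in mutants and 5.03, 3.98 and 5.91 in mutants with rapamycin. Its B of -2.90 was next to that of Rtel1 at the low end of the members, with groups apart in mutants. Arhgap20, a GTPase-activating protein (chr9:51765337-51853856), had 6.79, 6.59 and 7.32 in controls and 6.31, 6.09 and 5.46 with rapamycin, and 7.87, 7.70 and 7.93 in mutants and 6.93, 6.996 and 7.48 with rapamycin, with both pairs apart. Lcmt1, which methylates the catalytic subunit of phosphatase 2A (A -1.07, B -1.03), Uhmk1, a serine/threonine kinase (A -0.74, B -0.65), Inpp5j, an inositol 5-phosphatase (A -1.12, B -0.73), and Cdc42se2, a Cdc42 effector (A -1.08, B -0.93), completed this group. For Lcmt1, control rapamycin 2 was at 1.47, while the other control rapamycin libraries (4.94 and 4.45) lay among the untreated controls (4.36 to 4.99).

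Genes of the cytoskeleton gave 5 members of 29 candidates: Cfl1, Dynlrb1, Stmn4, Tpm1 and Ttl. Cfl1, the actin-severing protein cofilin, was apart in both genotypes (A -0.63, B -0.90), with the caveat that it has near-identical copies. Dynlrb1, a dynein light chain, and Stmn4, a stathmin that binds tubulin, were apart in mutants only, with B of -0.66 and -1.55. Tpm1, a tropomyosin, was apart in neither (A -0.72, B -0.66). Ttl, tubulin tyrosine ligase, was apart in mutants (B -0.78). The 29 candidates of the list had a median A of 0.09 and B of -0.47. Eps8l2, an actin regulator, had A -0.83 and B -0.97.

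**Figure D3:**
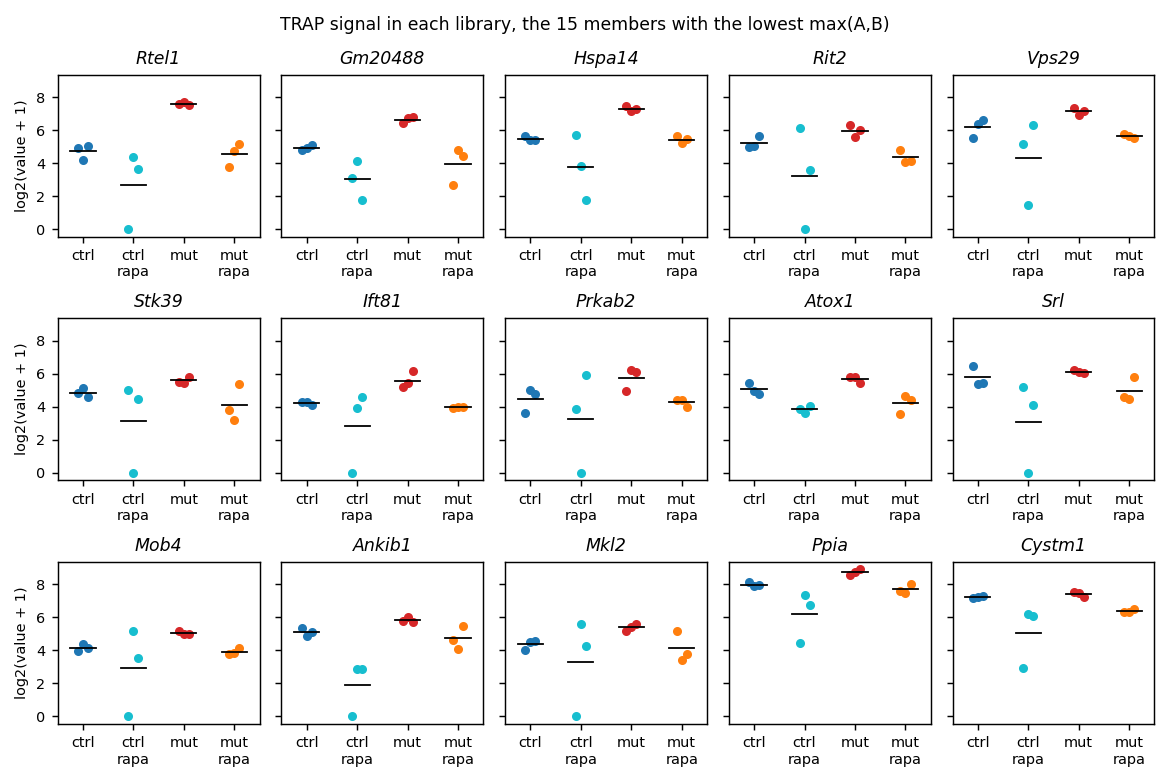
TRAP signal, log2(value + 1), of the 15 lowest-ranked members in each library, with 3 points per group and a bar at the group mean (ctrl, control; mut, mutant; rapa, rapamycin). Mutant rapamycin points lie below the mutant points in most panels, while control rapamycin points spread, down to 0 for Rtel1, Rit2, Stk39, Ift81, Prkab2, Srl, Mob4, Ankib1 and Mkl2.

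Ion and metal handling included Atox1, a copper chaperone (chr11:55446641-55461239). Its levels were 5.42, 4.93 and 4.79 in controls, 3.85, 3.64 and 4.03 in controls with rapamycin, 5.81, 5.79 and 5.44 in mutants and 3.57, 4.66 and 4.41 in mutants with rapamycin. All rapamycin libraries lay below the untreated ones of their genotype, and no library was at 0. Srl, sarcalumenin, a calcium-binding protein of the reticulum lumen (chr16:4480216-4541816), had 6.47, 5.41 and 5.44 in controls and 5.19, 0 and 4.09 with rapamycin, and 6.20, 6.10 and 6.05 in mutants and 4.62, 4.496 and 5.82 with rapamycin. Car7, a cytosolic carbonic anhydrase of neurons (chr8:104534689-104550343), had 7.03, 7.34 and 7.56 in controls, 6.45, 6.79 and 6.495 in controls with rapamycin, 7.91, 7.71 and 7.87 in mutants and 6.51, 6.996 and 6.83 in mutants with rapamycin. Both pairs of groups were apart for Srl and Car7. Kcnmb4, the beta-4 subunit of BK potassium channels (chr10:116417861-116473878), had 6.25, 6.04 and 6.88 in controls and 0, 6.44 and 4.09 with rapamycin, and 6.30, 6.85 and 6.10 in mutants and 5.93, 4.496 and 6.87 with rapamycin. Neither of its pairs was apart. It was the single member of 13 channel candidates, and Cabp7, a calcium-binding protein (A -1.74, B -0.60), was the single member of 22 candidates of the calcium list. Neither pair was apart for Cabp7.

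Other members have roles in the nucleus or in RNA handling. Mkl2, the serum response factor coactivator MRTF-B (chr16:13256481-13417529), had 4.03, 4.48 and 4.57 in controls, 0, 5.57 and 4.28 in controls with rapamycin, 5.18, 5.43 and 5.57 in mutants and 5.14, 3.38 and 3.80 in mutants with rapamycin, and was apart in mutants only. Lhx1, a LIM homeodomain factor of PCs and the single member among the Purkinje markers (chr11:84518284-84525535), had 5.47, 6.01 and 5.30 in controls and 5.46, 2.85 and 6.16 with rapamycin, and 6.08, 6.01 and 5.58 in mutants and 4.62, 4.41 and 5.31 with rapamycin. Its mutant groups were apart and its control groups were not. The 12 Purkinje candidates together had a median A of -0.57 and B of -0.05, and Lhx1 had A -0.77 and B -1.11. Hnrnpm, a splicing factor (A -1.66, B -0.69), Scmh1, a polycomb protein, Smyd2, a lysine methyltransferase (A -0.77, B -0.70), and Akirin1, a nuclear protein, were further members. Neither pair was apart for Smyd2, which was 5.69, 0.91 and 4.75 in controls with rapamycin, against 4.19 to 4.98 without. With a control rapamycin library at 0 left out, A was 0.08 for Akirin1 and -0.55 for Scmh1. Paip2b, an inhibitor of poly(A)-binding protein in translation, was the single member of 13 ribosome and translation candidates (A -1.12, B -0.98), and neither of its pairs was apart. Its first control rapamycin library was at 0, and with that value left out its A was 0.43. The ribosome and translation list had a median A of 0.44 and B of -0.27, and 3 of its 13 candidates were below 0 in both. The 5S ribosomal RNA copy n-R5s213 was a member with B -0.71, but reads of 5S copies cannot be told apart and the other 19 candidate copies were not members.

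Metabolic members were Aldoc, the glycolytic enzyme aldolase C that marks PC stripes and is also made by astrocytes, Atp5g1, a ring subunit of ATP synthase, Lpin2, a phosphatidate phosphatase, Sat1, which acetylates polyamines, Srr, serine racemase, Prps1, which makes phosphoribosyl pyrophosphate, and Mgst3, a microsomal glutathione S-transferase. Aldoc had the highest value of the members on this scale, which is not corrected for transcript length, with 10.47 to 10.91 in controls, 9.69 to 10.35 with rapamycin, 11.20 to 11.55 in mutants and 10.56 to 11.05 in mutants with rapamycin, apart in both genotypes. Sat1 had a B of -2.62 and Mgst3 of -1.45, with A of -0.78 and -0.59, and both were apart in mutants only. Sat1 was 1.54, 6.15 and 5.197 in controls with rapamycin, against 4.302 to 5.95 without. Of those control rapamycin libraries only the first lay below the untreated mean of 5.08, so the negative A of Sat1 rests on that library. Atp5g1 was apart in both genotypes (A -0.84, B -0.75). Lpin2 was apart in both (A -2.72, B -0.79), and its first control rapamycin library was at 0. Srr was apart in mutants only (B -0.70) and Prps1 in neither (A -0.91, B -0.73). Prps1 was 5.33, 0 and 4.24 in controls with rapamycin, against 3.67 to 4.68 without. With the 0 left out, the A of Prps1 was 0.68. Cystm1, a small membrane protein (chr18:36342520-36403097), had 7.17, 7.21 and 7.31 in controls, 2.95, 6.18 and 6.05 in controls with rapamycin, 7.52, 7.45 and 7.25 in mutants and 6.29, 6.34 and 6.47 in mutants with rapamycin. Both of its pairs were apart. The remaining 6 members (Fam107b, Fam220a, Hint3, Lrrfip2, Pcmtd1 and Tceal9) had A from -2.04 to -0.61 and B from -1.46 to -0.67. Fam220a was 5.07, 0 and 5.61 in mutants with rapamycin, and with the 0 left out its B was 0.76. Hint3, with the lowest A of these, was 1.54, 5.71 and 6.27 in controls with rapamycin, against 6.15 to 6.78 without.

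Few features beyond A and B were shared by the members. Of the 60, 58 were protein coding, and 35 loci matched their reference transcript while 22 only shared a junction with it and 3 only overlapped it, so that gene assignment is uncertain for those 25. The median TRAP mean was 5.24 against 5.93 for the other candidates, but the rule filtered on that mean and used the same values. The median transcript length was 2391 against 2956 bases with GC content of 50.1% against 52.9%. Chromosome 11 held 11 of the 60 members (18.3%, against 10.7% of the 646 candidates that could be placed). Among neighbours, Hspa14 and Fam107b lie 57.7 kb apart, Rtel1 and Dnajc5 163.9 kb, and Vps29 and Ift81 185.2 kb.

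Glial markers also differed between the TRAP groups. The summed level of the 5 named astroglia markers (of 8 listed) was 8.58 to 9.003 in mutants and 5.96 to 7.59 in mutants with rapamycin, against 6.72 to 7.68 in controls and 5.93 to 7.10 in controls with rapamycin. That of the 11 microglia markers was 5.38 to 6.20 in mutants, 1.49 to 3.98 in mutants with rapamycin, 0 to 2.98 in controls and 0 to 5.91 in controls with rapamycin. In all 3 mutant rapamycin libraries 6 of the 11 were at 0, and in all 3 controls 7 were. The part of these cells in the levels of the members was not tested. The 5 astroglia markers did not move together. Gfap was 7.12 to 7.81 in mutants and 4.58 to 5.56 in mutants with rapamycin, and Apoe was 7.68 to 8.04 and 4.89 to 6.73. Tnc was instead 0 to 1.64 in mutants and 1.89 to 2.23 with rapamycin, and both ranges lay below its 2.72 to 4.03 in controls. Bcan (4.33 to 4.46 against 2.95 to 5.02) and Sox2 (1.33 to 2.30 against 0 to 2.71) overlapped.

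Genotype differences of the same genes were read in TRAP next. Without rapamycin, the mutant mean was above the control mean for 57 of 60 members, by a median of 0.74, against 54.3% of all loci tested. For 42 members all 3 mutants lay above all 3 controls, against 8.62% of all loci. With rapamycin, 55 members were higher in mutants, by a median of 1.01, against 65% of all loci. These levels include the untreated mutant and control rapamycin libraries that chose the members, so nothing is read from the shares. Mutants with rapamycin differed from untreated controls by a median of -0.25, with 14 members above. The rule favours low values in the former and high values in the latter, so nothing is read from this contrast either. Averaged over both treatments (limma, 12 libraries, rapamycin as a term), the median mutant minus control difference was 0.96, against 0.27 for all 649 candidates and 0.25 for all loci tested. Past an unadjusted p of 0.01 and a fold of 2 were 8 members, all higher in mutants, while 1.66% of all loci tested were called higher and 0.719% lower. These were Rtel1 (2.38 ± 0.65, SE), Ankib1 (1.78 ± 0.57), Hspa14 (1.74 ± 0.53), Lhpp (1.55 ± 0.503), Ptprn (1.49 ± 0.40), Tmed8 (1.34 ± 0.39), Olfm1 (1.06 ± 0.32) and Arhgap20 (1.06 ± 0.29). No member passed a Benjamini-Hochberg adjusted p of 0.05 in limma (lowest 0.286), and 20 (33.3%) had an unadjusted p under 0.05, against 8.56% of all loci tested and 16.9% of the 649 candidates. The other candidates gave 5 higher and 20 lower of 589. For the members this is a description and not a test, since the libraries that chose them enter it with unequal spread and the study's lists were picked on the genotypes. The count was 2 without mutant rapamycin replicate 3, 11 without control rapamycin replicate 2 and 0 in the 6 libraries with rapamycin. With totals of the libraries made equal, Rtel1 alone of the 8 passed, while the differences hardly moved (median over members 0.95, Ptprn 1.49, Olfm1 1.05) and the SE rose (Ptprn 0.66, Olfm1 0.67). Below 0 were Fam220a (-1.09) and n-R5s213 (-2.03).

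Total RNA in sorted PCs came from libraries whose values do not enter A or B. They did enter the study's lists that give the candidates their symbols, both that of total RNA differences and that of translation efficiency, which sets TRAP against total RNA. The sorted genotype differences of the members are therefore not independent of how they were named, and the candidates are given beside them. The median member level was 11.92 (log2) against 12.13 for the other candidates, on a scale of its own, and n-R5s213 alone was listed at 0 in all 10 libraries. Of 59 members tested with limma, 47 were lower and 12 higher in mutants, with a median difference of -0.38. A difference above 0 was found in 20.3% of the members, 15.5% of the 605 named candidates tested and 52.6% of all loci tested. All candidates had a median of -0.51, and all 16455 loci tested 0.03. Only 3 members passed an unadjusted p of 0.01 and a fold of 2, all lower in mutants, where 1.08% of all loci tested were called lower. That is 5.08% of the members, against 14.4% of 605 named candidates (86 lower and 1 higher), a difference that was not tested. Srl and Car7 are the 2 members from the study's own list of total RNA differences and Kcnmb4 comes from its translation efficiency list, so that their passing is not independent evidence. No member passed an adjusted p of 0.05 (lowest 0.394). An unadjusted p under 0.05 was reached by 16 members (27.1%), against 11.3% of all loci tested and 45.5% of the 605 named candidates.

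Srl was 11.08, 10.38, 10.19, 10.22 and 9.39 in controls 45, 48, 144b, 144a and 176 and 8.40, 8.63, 8.44, 9.98 and 9.25 in mutants 61, 74, 103, 167 and 191. Its difference was -1.32 ± 0.38 (SE, n = 5 and 5, limma adjusted p = 0.394). Car7, in the same order of libraries, was 12.55, 11.94, 11.78, 11.88 and 11.12 in controls and 8.58, 9.65, 7.88, 11.12 and 11.07 in mutants, a difference of -2.19 ± 0.63 (limma adjusted p = 0.394). All mutants lay below all controls for Car7, and also for Srr and Cabp7, against 1.39% of all loci. Kcnmb4 was 13.15, 12.54, 11.80, 12.62 and 11.498 in controls and 10.05, 10.38, 8.29, 11.55 and 11.44 in mutants, a difference of -1.98 ± 0.61 (limma adjusted p = 0.394). Libraries 144a and 144b are labelled with 1 animal number, and with their values averaged none of the 3 passed (limma unadjusted p = 0.0126 for Srl, 0.0125 for Car7 and 0.0146 for Kcnmb4). For these 3 genes the lowest levels were in mutants 61, 74 and 103, and mutants 167 and 191 lay near or among the controls. Cabp7 had the largest difference of the members, -2.85 ± 0.93, and missed the p threshold. Trim37, at -1.57 ± 0.53, did too. Lhx1 was 10.68, 10.14, 8.13, 9.28 and 9.04 in controls and 8.25, 8.90, 6.13, 8.98 and 8.90 in mutants, with overlapping groups and a difference of -1.22 ± 0.64.

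Some members differed by less than the spread between libraries. Rtel1 was 11.81, 10.56, 11.08, 11.15 and 10.89 in controls and 10.66, 10.88, 10.53, 11.40 and 12.14 in mutants, a difference of 0.03 ± 0.34. Within submission MS3005 (mutants 167 and 191 against controls 144a and 176) it was 0.75, and the TRAP genotype difference was 2.38. Aldoc was 17.53, 18.11, 18.28, 18.36 and 17.57 in controls and 17.91, 17.96, 18.02, 17.79 and 18.14 in mutants, a difference of -0.003 ± 0.20. The highest difference of the members was that of Sat1, at 0.4999 ± 0.28, which did not pass the test and was -0.12 within MS3005.

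Submission moved with the total RNA of the members. The median difference of the members from the control mean was -0.47, -0.46 and -0.68 in mutants 61, 74 and 103, whereas in mutants 167 and 191 it was 0.01 and -0.003. Within MS3005, the 1 submission with both genotypes (2 libraries of each), the median difference was 0.082, with 24 members lower and 35 higher in mutants. With submission as a term in limma, 0 members passed the thresholds and 1 had an unadjusted p under 0.05, against 16 without the term. Leaving out 1 library gave 0 to 7 members past the thresholds. The 3 mutants of MS2723 are the libraries with low Purkinje markers, so that genotype, submission and the share of PC RNA cannot be told apart in them. Their astroglia marker sum was 18.36 to 18.66, against 17.12 to 18.39 in the rest of the sorted libraries. The part of other cell types in these differences was not tested. Within MS3005 Srl was -0.19, Car7 -0.41 and Kcnmb4 -0.57.

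**Figure D4:**
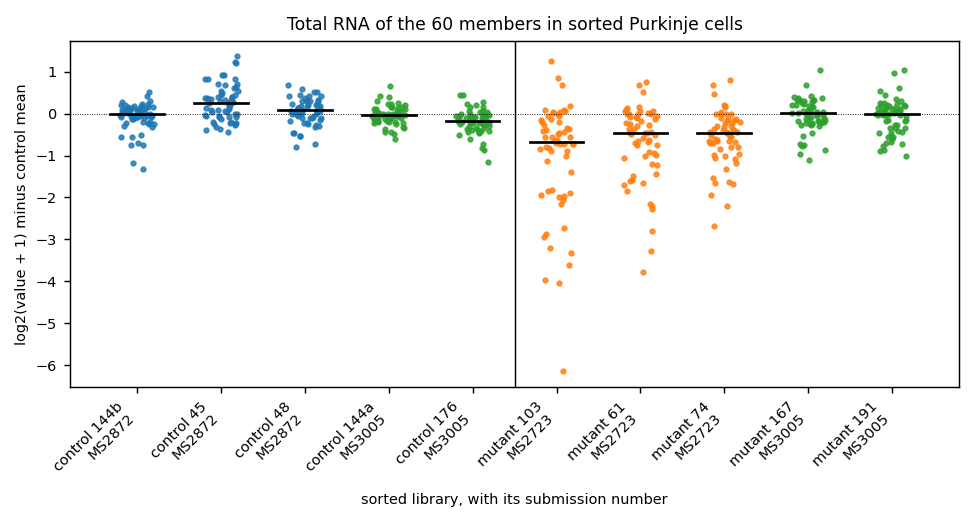
Total RNA of the 60 members in each of 10 sorted libraries, as log2(value + 1) minus the control mean, coloured by submission number, with a bar at the median. The medians of the 3 mutants of MS2723 lie between -0.68 and -0.46, and those of the 2 mutants of MS3005 at the control mean.

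**Figure D5:**
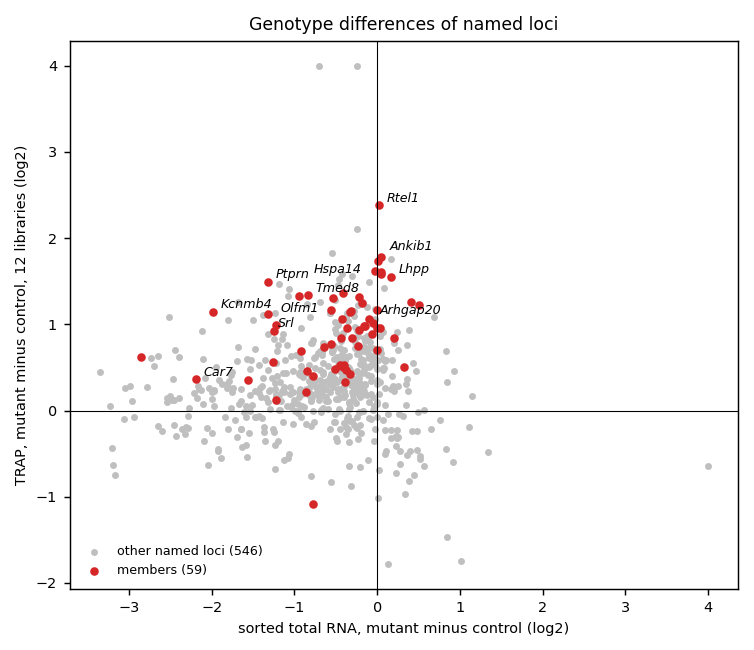
Mutant minus control difference in sorted total RNA (x axis, log2) and in TRAP averaged over 12 libraries (y axis, log2) for named loci tested in both, with values beyond 4 drawn at the edge. The 59 members (red) are above 0 in TRAP except Fam220a, while 47 of them are below 0 in total RNA. Of all 605 named candidates tested in total RNA, 511 are below 0.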

How the data were processed

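Total RNA of sorted PCs and ribosome-bound RNA from TRAP were sequenced as paired-end reads. Per the submitters' processing notes, the authors used Trimmomatic 0.39, STAR 2.7.0f, GRCm38 and Cufflinks 2.2.1. In both tables the deposited unit is a signal, estimated fragments divided by 1 size factor per library, and the tables were scaled separately. Because only 61.8% to 95.1% of the values were within 0.01 of a whole multiple of the step that 1 fragment is worth, they were not treated as counts. Values were transformed to log2(value + 1). Loci whose mean reached 5 in sorted or 2 in TRAP libraries were compared with limma 3.58.1 in R 4.3.3. A call needed p below 0.01 before adjustment and more than a 2-fold difference, with Benjamini-Hochberg adjusted p-values over all loci tested. Fold changes on this scale understate those of low genes. For its sorted comparison the study states fewer animals per genotype than the 5 libraries used here. A figure legend of the study instead gives 5 animals for each genotype. The labels give 144a and 144b 1 number, so n may exceed the number of control animals.

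The fits were tested on simulated data in which 200 loci were changed 4-fold between genotypes. The thresholds recovered 174 of them in sorted and 136 in TRAP data, and 95 and 96 unchanged loci were called. Each locus was given the same spread in every group, unlike the control rapamycin libraries here. Symbols came from the study's gene lists, which also hold its own comparisons, not used here. Coordinates are those of GENCODE M21. The members and gene lists were chosen with earlier results of these data known. Values in every library are given for the 15 lowest-ranked members, members past the thresholds for genotype and members that are cell markers. Members of the lists for solute carriers, zinc finger proteins, small RNAs and stress genes numbered 0, and mitochondria, RNA processing and predicted transcripts gave 1 each. Alternatives were other scalings, pseudocounts, filters, a replicate block, submission as a term, and each library left out. Figures were drawn with matplotlib 3.10.9.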

Additional observations from a re-analysis of the deposited data

Results flagged for a closer look

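For 8 members, a single library stood apart in total RNA of sorted PCs, by a gap to the nearest of the other 4 libraries of the genotype that was large for the group's range. Of 120 groups of 5 libraries examined, 8 met this criterion, and chance alone gives about 1 in 20.

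Mutant 103 was low for 4 members. Olfm1 was 12.13 on the log2 scale against 13.81 to 14.07 in the other mutants, Ptprn 7.49 against 9.20 to 9.85, Lhx1 6.13 against 8.25 to 8.98 and Dnajc5 13.08 against 13.41 to 13.55. The Purkinje marker sum of the same library was 15.65, the lowest of the 10. Control 48 was high for 3 members, with Ppia at 14.997 against 14.58 to 14.60, Dynlrb1 at 13.84 against 13.13 to 13.23 and Akirin1 at 12.09 against 11.84 to 11.86. Mob4 was low in mutant 191, at 11.86 against 12.25 to 12.37.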

How the results depend on the processing

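The list itself depended on scaling and filter: 35 of the 60 members stayed among the lowest 60 with equal library totals and 26 with a TRAP mean of at least 2. With a mean of at least 6, 17 stayed. That filter removes members by construction, since only those 17 have such a mean, so every eligible member stayed. Each library left out kept 43 to 55 of them, 43 without either control rapamycin replicate 1 or 2, and 16 members were kept without each of the 12 libraries. The median of A was -0.73 with a pseudocount of 10 and that of B was -1.67 with equal totals, which moved the median B of all loci by -0.75; relative to it, members were at -0.87 there and at -0.85 as reported. Leaving out a library gave medians of -1.47 to -1.0 for A and -1.05 to -0.81 for B. With values at 0 left out or with group medians, both chosen after seeing the data, all medians stayed below 0.

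In sorted PCs, 0 members passed the thresholds with submission as a term, within MS3005 or with 144a and 144b averaged (1, 1 and 12 in limma at an unadjusted p under 0.05), and the median difference was 0.082 with submission as a term and within MS3005. Leaving out 1 library gave 0 to 7 members past the thresholds (7 without mutant 167, 6 without mutant 191, 1 without mutant 103, 3 without control 176 and 0 without any of the other 6) and a median of -0.46 to -0.31. For the TRAP genotype comparison, members past the thresholds numbered 1 with equal totals, 5 with a pseudocount of 0.1 and 0 in the 6 libraries with rapamycin (2 at an unadjusted p under 0.05), an alternative added later. The median was 0.59 with a pseudocount of 10 and 0.74 in the 6 libraries without rapamycin, where 9 passed. Leaving out a library gave 2 to 11 members (2 without mutant rapamycin replicate 3, 3 without control replicate 2, 4 without any 1 of the mutant replicates and 5 without control replicate 1, control replicate 3 or mutant rapamycin replicate 1) and a median of 0.67 to 1.09. The cause of these shifts was not tested.

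Same-numbered TRAP libraries did not deviate together (correlations of -0.0654 to 0.0736), so the numbers were not taken as pairs. With a replicate block, 6 members passed and the median stayed 0.96. The sorted mutants and controls share no animal numbers, so no block by animal number could be fitted between them. Counting error is largest for the lowest TRAP values, and its part in the spread was not tested.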
